A study of Mus musculus with 13 samples.

Results

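Cathepsins are proteases of the lysosome, and 10 mouse cathepsin genes are described here in brain tissue after traumatic injury. They are Ctsa, Ctsb, Ctsc, Ctsd, Ctsf, Ctsh, Ctsk, Ctsl, Ctss and Ctsz chosen by gene symbol from the full gene table. All 10 had enough reads to be tested, and they are 10 of the 14875 genes that did. RNA was sequenced from whole brain hemispheres of wild-type male C57BL/6 mice aged 12 to 16 weeks, collected on day 4 after surgery. Surgery was a controlled cortical impact (CCI), in which a piston strikes the exposed cortex, or a sham operation. The hemisphere on the operated side is called ipsilateral and the opposite one contralateral. There were 4 CCI ipsilateral libraries (animals 1, 2, 3 and 5), 2 sham ipsilateral libraries (animals 4 and 6), 4 CCI contralateral libraries (animals 1, 2, 3 and 5) and 3 sham contralateral libraries (animals 4, 6 and 8). The library names mark all ipsilateral hemispheres RH and all contralateral ones LH, so an effect of side and an effect of surgery within an animal cannot be told apart.

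Cathepsins are made as inactive precursors, carried to the lysosome largely by the mannose 6-phosphate route, and switched on by cleavage at acid pH. There they break down proteins taken up by phagocytosis or delivered by autophagy. In the brain they are made by all main cell types, with especially high levels in microglia and macrophages. Cystatins and related proteins hold the cysteine proteases among them in check. Ctsd is the aspartic protease of the group and Ctsa a serine carboxypeptidase. The other 8 are cysteine proteases of the papain family: Ctsb, Ctsl, Ctss, Ctsk and Ctsf cut within protein chains, while Ctsc, Ctsh and Ctsz mainly trim chain ends.

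Levels are given as CPM, counts scaled to library size with TMM factors, which compare a gene across libraries, or as TPM, which are also scaled for gene length and so compare genes. A gene was called changed at an adjusted p under 0.05 in edgeR's quasi-likelihood test, with Benjamini-Hochberg adjustment over all genes tested, and every adjusted p below is from that test unless another source is named. Total counts were 7126705 to 7955053 in CCI ipsilateral, 5908005 to 6874927 in sham ipsilateral, 5604813 to 7444550 in CCI contralateral and 6578596 to 6855515 in sham contralateral libraries. Markers of neurons, astrocytes and oligodendrocytes were abundant in all 13 libraries. In whole hemispheres, more cells of a type and more RNA per cell cannot be told apart.

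On the side of the impact, 8 of the 10 cathepsin genes rose against sham, by 1.76-fold to 4.41-fold. Ctsd, Ctss, Ctsh, Ctsz and Ctsc formed an upper set between 3.68-fold and 4.41-fold, and Ctsl, Ctsb and Ctsa a lower set between 1.76-fold and 2.26-fold. Ctsf and Ctsk did not pass the test. Over all genes tested 12.5% were called higher (1859) and 10.0% lower (1493). Without the sham ipsilateral library of animal 6 these counts were 985 and 690, and on log2(TPM + 1) they were 1912 and 699; the 8 members were called in both. The median log2 fold change of the 10 cathepsin genes was 1.53, beside 0.004 over all genes tested.

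Ctsd had 1385, 1092, 1520 and 1472 CPM in the CCI ipsilateral hemispheres of animals 1, 2, 3 and 5, against 330 and 290 CPM in the sham ipsilateral hemispheres of animals 4 and 6. Its lowest CCI value was therefore far above its highest sham value, and its log2 fold change was 2.14 ± 0.13 (SE; adjusted p = 1.24e-07). Ctsd is the main aspartic protease of lysosomes and its loss causes a storage disease of neurons. Ctsa, which also stabilises the lysosomal enzymes Glb1 and Neu1, had 148, 131, 165 and 164 CPM in CCI ipsilateral hemispheres, against 92.5 and 81.1 CPM in sham ipsilateral ones. The groups did not overlap, and the log2 fold change of Ctsa was 0.81 ± 0.09 (adjusted p = 1.09e-07).

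Among the cysteine endopeptidases, Ctsb was the most abundant. It had 1208, 1056, 1341 and 1261 CPM in CCI ipsilateral hemispheres, against 588 and 566 CPM in sham ipsilateral ones, and its log2 fold change was 1.08 ± 0.07 (adjusted p = 1.46e-12). Its SE was the smallest of the 10 members, and it was 7th of all genes tested in order of p. Ctsl, a broad endopeptidase, had 177, 153, 193 and 186 CPM in CCI ipsilateral hemispheres, against 85.2 and 71.6 CPM in sham ipsilateral ones (log2 fold change 1.18 ± 0.09, adjusted p = 5.44e-11). Ctss stays active at neutral pH and cuts the invariant chain of MHC class II in antigen-presenting cells. It had 189, 174, 267 and 209 CPM in CCI ipsilateral hemispheres, against 47.0 and 54.0 CPM in sham ipsilateral ones. Its log2 fold change was 2.05 ± 0.19 (adjusted p = 2.69e-05), and animal 3 stood above the other CCI animals.

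The remaining endopeptidases, Ctsf and Ctsk, were not called. Ctsf had 48.2, 51.3, 49.5 and 50.8 CPM in CCI ipsilateral hemispheres, against 48.7 and 45.7 CPM in sham ipsilateral ones. The groups overlapped, and the log2 fold change of 0.08 had a 95% interval of -0.11 to 0.28 (adjusted p = 0.597), whose upper bound lies below the log2 fold change of every called member. Ctsk, the collagen-degrading protease of osteoclasts, was scarce, with 33, 35, 24 and 40 counts in CCI ipsilateral libraries and 16 and 15 counts in sham ipsilateral ones. In CPM these were 4.43, 4.32, 3.29 and 4.98 in CCI ipsilateral hemispheres, against 2.76 and 2.26 in sham ipsilateral ones. Its log2 fold change of 0.77 had an interval of 0.13 to 1.41 and missed the threshold (adjusted p = 0.0786), although the groups did not overlap.

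The 3 cysteine exopeptidases belonged to the upper set. Ctsz, a carboxypeptidase also known as cathepsin X, had 106, 89.4, 120 and 131 CPM in CCI ipsilateral hemispheres, against 27.6 and 32.2 CPM in sham ipsilateral ones (log2 fold change 1.90 ± 0.15, adjusted p = 5.96e-07). Ctsh, an aminopeptidase, had 32.7, 29.5, 43.7 and 39.9 CPM in CCI ipsilateral hemispheres, against 9.82 and 8.15 CPM in sham ipsilateral ones (log2 fold change 2.02 ± 0.16, adjusted p = 1.88e-10). Ctsc, the dipeptidyl peptidase that activates granzymes and neutrophil serine proteases, had 31.1, 23.7, 35.7 and 32.02 CPM in CCI ipsilateral hemispheres, against 9.13 and 7.55 CPM in sham ipsilateral ones (log2 fold change 1.88 ± 0.18, adjusted p = 1.22e-08). In each of the 3 genes every CCI animal lay well above both sham animals. How many of all genes tested were separated in this way on the ipsilateral side was not counted.

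**Figure D1:**
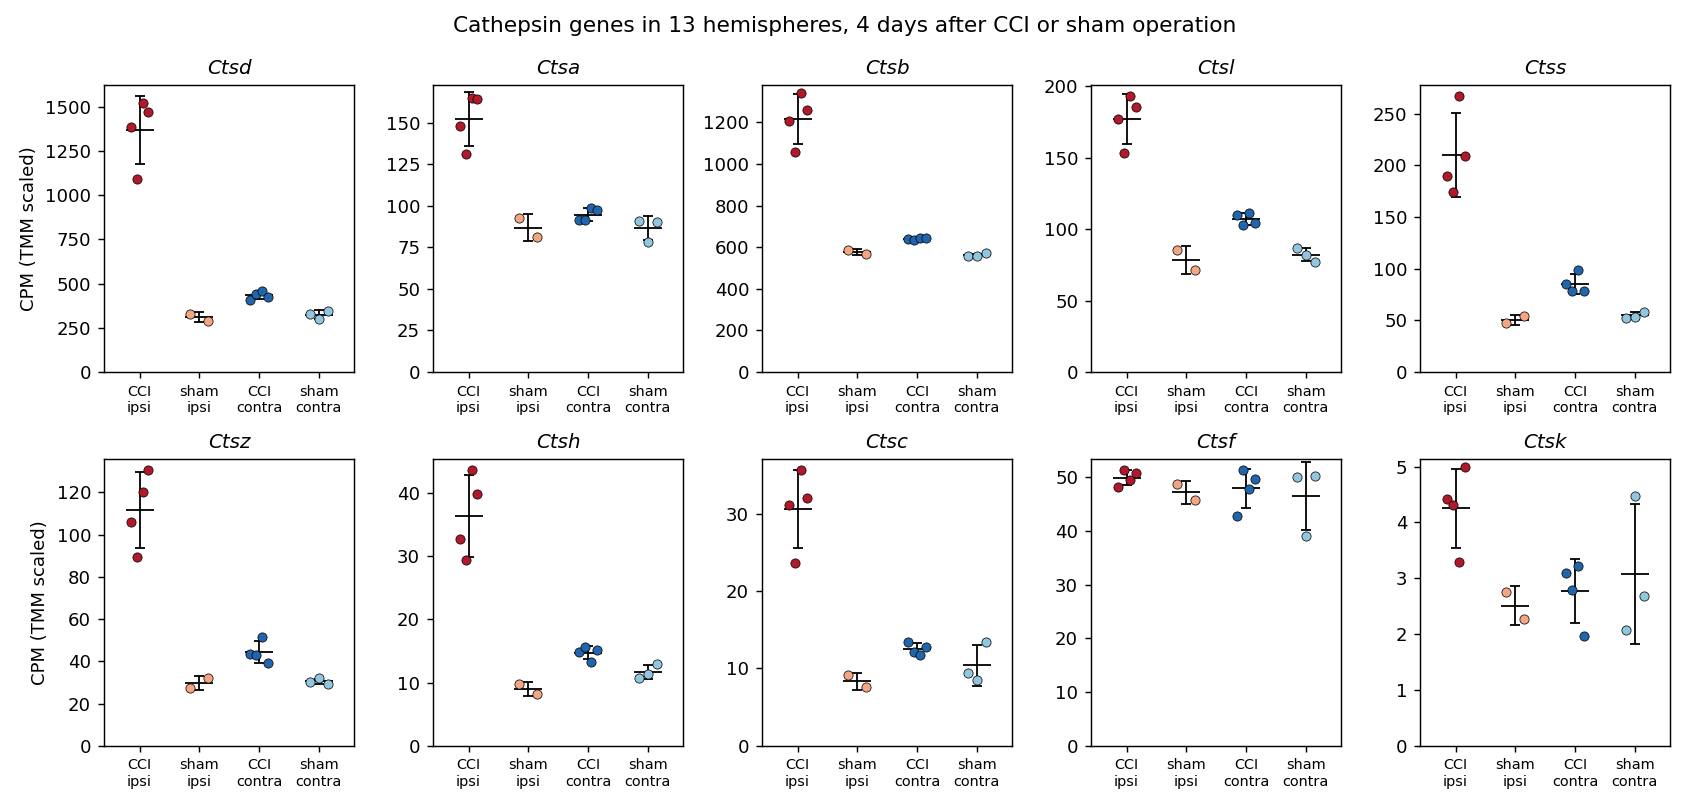
CPM of each cathepsin gene (linear axes from 0) in every library, with points for animals and black bars for the mean ± SD of each group. In 8 panels the 4 CCI ipsilateral points lie above all other points, for Ctsd between 1092 and 1520 CPM. The share of all genes tested with such a separation was not counted. Ctsf is level across the groups and Ctsk is scarce and scattered.

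In the ipsilateral hemisphere animal 2 was the lowest of the 4 for 8 of the 10 genes, and animal 3 the highest for 7. In the contralateral hemisphere animal 3 was the highest of the 4 for 7 genes and the lowest for 2, and the lowest value was spread over all 4 animals (animal 1 for 2 genes, animal 2 for 3 and animal 5 for 3). Animal 2 also had the lowest and animal 3 the highest mean level of 10 homeostatic microglia genes among CCI ipsilateral hemispheres, at 5.42 and 5.92 on the log2 CPM scale. The part of cell numbers in these values was not tested.

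In TPM the cathepsin genes together reached 3125 ± 414.8 in CCI ipsilateral hemispheres (SD, n = 4) and 984 ± 73.0 in sham ipsilateral ones (n = 2). They reached 1291 ± 46.8 in CCI contralateral (n = 4) and 1006 ± 37.3 in sham contralateral hemispheres (n = 3). The make-up of this sum also differed. Ctsd supplied 45.3% to 48.2% of it in CCI ipsilateral hemispheres, against 31.9% and 33.4% in the sham ipsilateral ones. Ctsb supplied 18.4% to 19.7% in CCI ipsilateral hemispheres, against 26.7% and 28.0% in sham ipsilateral ones, although its own TPM was higher after CCI. Ctsf fell to 1.64% to 2.29% of the sum in CCI ipsilateral hemispheres, against 5.30% and 5.42% in sham ipsilateral ones, at almost the same TPM (57.8 ± 1.96 and 52.7 ± 3.10). These shares are descriptions, since 4 against 2 libraries allow no small exact p.

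The order of the levels in TPM began with Ctsd and then Ctsb in all 4 groups, with no overlap between the pair in any group. Their ratio was 2.50 in CCI ipsilateral, 1.20 in sham ipsilateral, 1.51 in CCI contralateral and 1.29 in sham contralateral hemispheres. Ctss ranked 3rd in both CCI groups (354 ± 73.4 TPM ipsilateral, 139 ± 15.2 contralateral) and 5th in both sham groups (82.1 ± 6.93 ipsilateral, 88.3 ± 4.68 contralateral), where Ctsa was 3rd. Ctsl was 4th in every group. In CCI ipsilateral hemispheres Ctsl and Ctsa, Ctsa and Ctsz, and Ctsf and Ctsh were neighbours whose ranges overlapped. The ranges also overlapped for Ctsa and Ctsl and for Ctsl and Ctss in sham ipsilateral hemispheres, for Ctsl and Ctsa in CCI contralateral ones, and for Ctsl and Ctss and for Ctsf and Ctsz in sham contralateral ones. Ctsh, Ctsc and Ctsk were the lowest, in that order, in every group, and Ctsk averaged 6.42 TPM in CCI ipsilateral and 3.66 TPM in sham ipsilateral hemispheres.

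**Figure D2:**
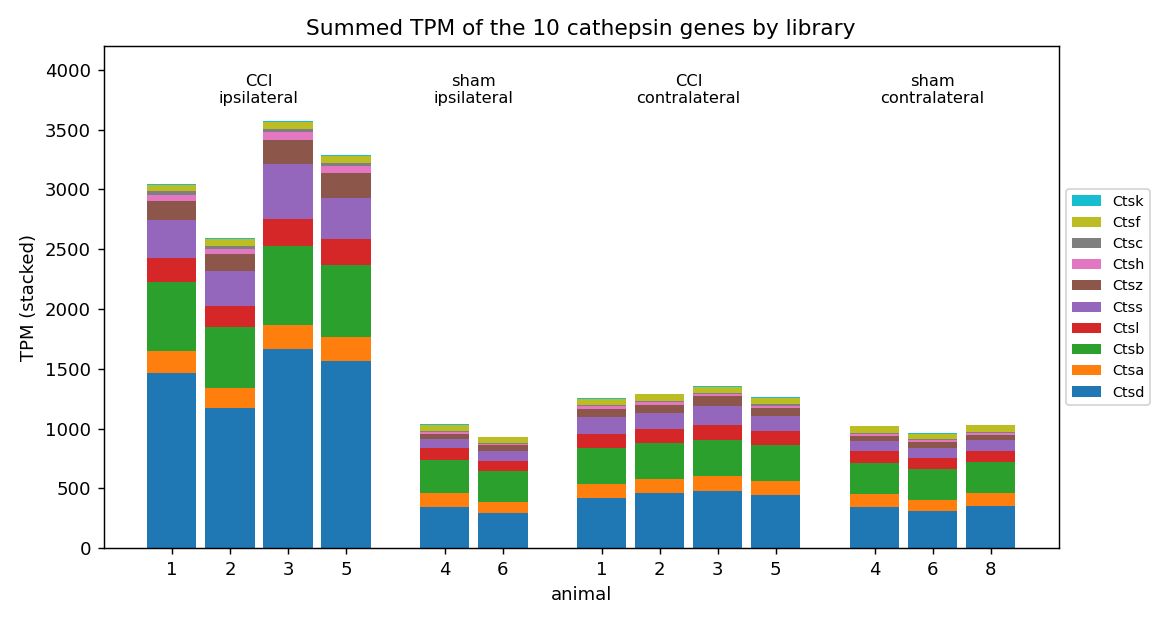
Stacked TPM of the 10 cathepsin genes in each library, with animals on the horizontal axis and the 4 groups set apart. The CCI ipsilateral bars reach 2592 to 3571 TPM, and Ctsd takes the largest block in every bar.

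Promoters were compared between members that moved by different amounts. RefSeq start sites on GRCm38.p6 gave 9 windows for 8 members, each from 250 bases before the start to 30 bases after it. Ctsb and Ctsh had no entry. Both strands were searched for CACGTG, the E-box core that lies within the lysosomal CLEAR element read by Tfeb and Tfe3, for GAGGAAG, a core read by the myeloid factor Spi1 (PU.1), and for GAAANNGAAA, an interferon-response core read by Irf factors. No match overlaps another in these windows. The windows shown are those of Ctsd, Ctsl and Ctsf, which hold CACGTG, and of Ctss, Ctsc and Ctsk, which hold GAGGAAG; capitals mark the motifs.
Ctsd, chr7:142387798-142388077, minus strand: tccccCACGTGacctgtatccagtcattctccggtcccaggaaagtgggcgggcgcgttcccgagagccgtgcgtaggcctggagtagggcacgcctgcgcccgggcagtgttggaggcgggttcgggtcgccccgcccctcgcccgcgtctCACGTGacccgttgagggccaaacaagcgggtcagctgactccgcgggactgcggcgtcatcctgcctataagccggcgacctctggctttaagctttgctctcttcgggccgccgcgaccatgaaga
Ctsl, chr13:64370491-64370770, minus strand: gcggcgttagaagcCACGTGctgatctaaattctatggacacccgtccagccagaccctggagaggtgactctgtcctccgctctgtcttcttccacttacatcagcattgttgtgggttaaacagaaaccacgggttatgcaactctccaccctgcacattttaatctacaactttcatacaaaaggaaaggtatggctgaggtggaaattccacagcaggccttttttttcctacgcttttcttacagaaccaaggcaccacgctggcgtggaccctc
Ctsf, chr19:4854915-4855194, plus strand: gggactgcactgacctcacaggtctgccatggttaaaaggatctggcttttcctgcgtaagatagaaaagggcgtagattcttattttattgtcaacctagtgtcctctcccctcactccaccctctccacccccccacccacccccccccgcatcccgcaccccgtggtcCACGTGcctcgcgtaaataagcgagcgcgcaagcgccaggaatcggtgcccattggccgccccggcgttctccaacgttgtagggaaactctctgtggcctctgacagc
Ctss, chr3:95526536-95526815, plus strand: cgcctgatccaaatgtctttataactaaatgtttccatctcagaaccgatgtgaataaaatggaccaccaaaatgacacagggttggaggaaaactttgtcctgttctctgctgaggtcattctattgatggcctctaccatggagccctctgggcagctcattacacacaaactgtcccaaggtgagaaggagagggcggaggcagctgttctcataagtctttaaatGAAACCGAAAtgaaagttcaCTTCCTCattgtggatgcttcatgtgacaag
Ctsc, chr7:88277835-88278114, plus strand: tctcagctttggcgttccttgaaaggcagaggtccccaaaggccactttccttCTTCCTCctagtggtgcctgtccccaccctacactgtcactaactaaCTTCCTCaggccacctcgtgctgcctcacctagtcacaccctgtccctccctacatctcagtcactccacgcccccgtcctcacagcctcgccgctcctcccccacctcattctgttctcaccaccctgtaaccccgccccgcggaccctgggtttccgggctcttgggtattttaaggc
Ctsk, chr3:95498960-95499239, plus strand: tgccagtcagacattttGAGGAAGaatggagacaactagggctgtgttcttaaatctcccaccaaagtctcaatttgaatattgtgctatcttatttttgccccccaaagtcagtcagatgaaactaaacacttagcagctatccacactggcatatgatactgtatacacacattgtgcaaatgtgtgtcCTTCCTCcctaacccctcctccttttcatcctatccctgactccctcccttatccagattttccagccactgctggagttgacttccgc

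CACGTG occurred in 4 of the 9 windows (44.4%), against 6.79% of 32851 mouse promoter windows of the same length. These were the windows of Ctsd (first base 245 and 98 bases before the start), Ctsl (236 before), Ctsf (79 before) and the downstream one of the 2 Ctsa windows (12 before and at base 6 after). The Ctsl window lies wholly within the gene bounds of GENCODE M21 (chr13:64359337-64370890). So does the downstream Ctsa window (chr2:164833523-164833802). GAGGAAG occurred in 3 of 9 windows (33.3%), against 12.2% of all windows, in Ctsc (197 and 150 bases before the start), Ctsk (233 and 59 before) and Ctss (1 before). GAAANNGAAA occurred in 1 of 9 (11.1%), against 3.28% of all windows, in Ctss with its first base 21 before the start. Ctsz and the upstream Ctsa window held none of the 3. Called and uncalled members shared letters: Ctsf holds CACGTG and Ctsk holds GAGGAAG without passing the test, and Ctsz rose 3.72-fold with neither. A match is a description of the letters only.

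Within the CCI animals the operated hemisphere was compared with the opposite one of the same mice. The same 8 cathepsin genes were called higher in CCI ipsilateral than in CCI contralateral hemispheres, against 12.8% of all genes called higher and 8.90% lower. Ctsd was 3.15-fold higher (adjusted p = 8.87e-08). Ctsz, Ctsh, Ctss and Ctsc were 2.45-fold to 2.50-fold higher, and Ctsb, Ctsl and Ctsa 1.90-fold, 1.65-fold and 1.61-fold higher. This comparison uses the same CCI ipsilateral libraries as the one with sham, so the 2 are not independent. Ctsk was 1.52-fold higher (adjusted p = 0.0709) and Ctsf 1.04-fold (adjusted p = 0.642), and neither was called. Without the ipsilateral library of animal 3, Ctsk was called (adjusted p = 0.0466).

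Each CCI animal showed the difference in each of the 8 genes. These genes were called in the same libraries, so this is no separate result. The share of all genes with this pattern was not counted. For Ctsd the ipsilateral hemisphere had 3.40, 2.48, 3.30 and 3.45 times the CPM of the contralateral one in CCI animals 1, 2, 3 and 5, against 0.997 and 0.969 times in sham animals 4 and 6. For Ctss the ratios were 2.21, 2.22, 2.71 and 2.67 in CCI animals, against 0.900 and 1.01 in sham animals. For Ctsb they were 1.89, 1.67, 2.08 and 1.96 in CCI animals, against 1.05 and 1.01 in sham animals. In all 3 genes the CCI and sham animals were well apart. Ctsh ratios were 2.17, 1.87, 3.24 and 2.60 in CCI animals, against 0.920 and 0.722 in sham animals. Ctsk showed no such pattern, with 1.39, 1.49, 1.02 and 2.35 in CCI animals, against 1.29 and 0.536 in sham animals.

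**Figure D3:**
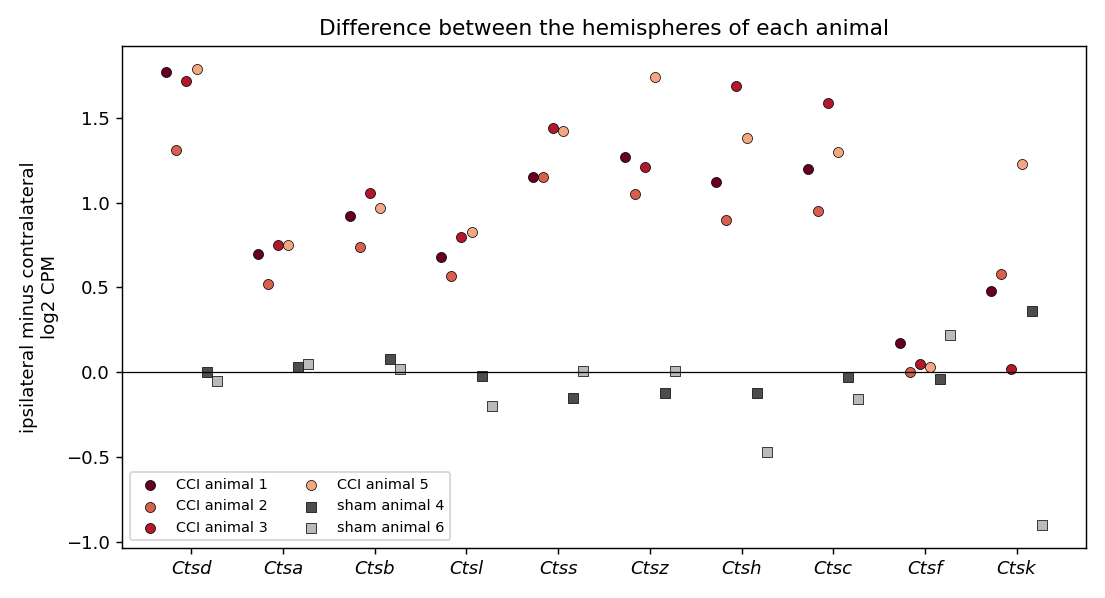
Difference in log2 CPM between the ipsilateral and the contralateral hemisphere of each animal, with circles for the 4 CCI animals and squares for the 2 sham animals. For Ctsd the CCI animals lie between 1.31 and 1.79 and the sham animals at 0.00 and -0.05.

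Sham surgery alone gave no call: 0 of the 10 cathepsin genes differed between sham ipsilateral and sham contralateral hemispheres (edgeR; 0 at an unadjusted p under 0.05; 0 by DESeq2), and 0.00672% of all genes did. With 2 ipsilateral libraries the intervals are wide for the scarce genes. Ctsh had 9.82 and 8.15 CPM in sham ipsilateral hemispheres, against 10.7, 11.4 and 12.9 CPM in sham contralateral ones. Its groups did not overlap, but its log2 fold change of -0.38 had an interval of -0.78 to 0.01 (unadjusted p = 0.0575, adjusted p = 0.817). The interval for Ctsb was -0.11 to 0.18.

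The difference between the hemispheres was then compared between CCI and sham mice in 1 test, the interaction. It was called for the same 8 genes, against 4.84% of all genes called in that direction. It was largest in the fit for Ctsd (log2 1.73 ± 0.16, adjusted p = 5.69e-05) and Ctsh (1.69 ± 0.22, adjusted p = 1.85e-05). Ctsc, Ctss and Ctsz followed at 1.62, 1.41 and 1.35, and Ctsb, Ctsl and Ctsa at 0.89, 0.79 and 0.69. Ctsk (0.90, adjusted p = 0.210) and Ctsf (0.04, adjusted p = 0.903) were not called. For Ctsh, Ctsc, Ctss and Ctsz the log2 hemisphere differences within CCI mice were alike, at 1.305, 1.29, 1.297 and 1.323. Within sham mice they were -0.385, -0.328, -0.113 and -0.023, with 2 ipsilateral libraries. The order of these genes in the interaction therefore follows the sham values.

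**Figure D4:**
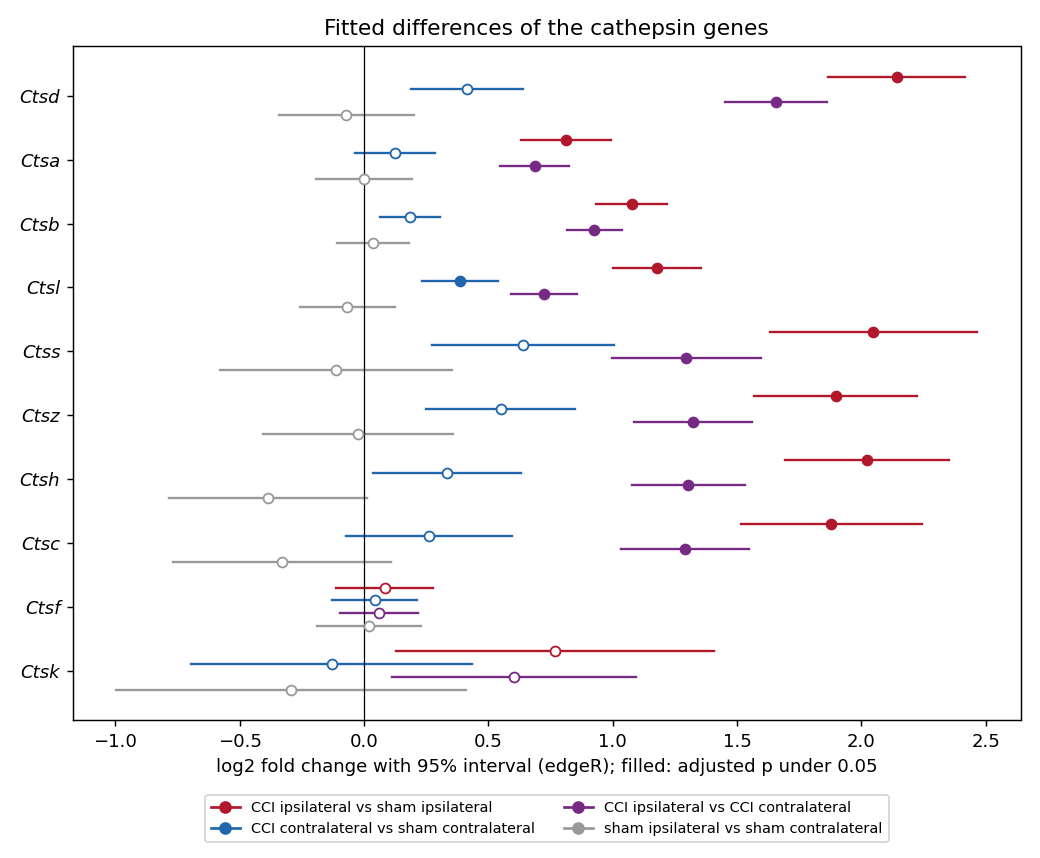
Fitted log2 fold changes of the 10 genes in 4 comparisons, as points with 95% intervals, filled where the adjusted p was under 0.05. In the comparison of CCI ipsilateral with sham ipsilateral hemispheres 8 points are filled, between 0.81 and 2.14. In the contralateral comparison the only filled point is Ctsl at 0.39.

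In the contralateral hemisphere, away from the impact, 9 of the 10 cathepsin genes did not pass the test against sham, with fitted log2 fold changes from -0.13 (Ctsk) to 0.64 (Ctss). Ctsl was the only member called, among 0.0807% of all genes called higher. It had 110, 103, 111 and 104.5 CPM in CCI contralateral hemispheres, against 86.6, 82.0 and 77.3 CPM in sham contralateral ones. The groups did not overlap, and its log2 fold change was 0.39 ± 0.08 (1.31-fold, adjusted p = 0.0418). The call was close to the threshold and was lost without any 1 of the 7 contralateral libraries (adjusted p 0.0591 to 0.199). In the authors' deposited table Ctsl had a log2 estimate of 0.08 and an adjusted p of 0.913 there.

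Every CCI contralateral value lay above every sham contralateral value for 7 of the 10 genes (Ctsa, Ctsb, Ctsd, Ctsh, Ctsl, Ctss and Ctsz), against 4.00% of all genes tested. An unadjusted p under 0.05 with a higher CCI level was reached by 6 of the 10, namely Ctsb, Ctsd, Ctsh, Ctsl, Ctss and Ctsz, against 3.43% of all genes. The median log2 fold change of the 10 was 0.30, beside -0.001 over all genes tested. Ctss had 85.4, 78.4, 98.5 and 78.2 CPM in CCI contralateral hemispheres, against 52.3, 53.5 and 58.6 CPM in sham contralateral ones. Its log2 fold change was 0.64 with an interval of 0.27 to 1.00, at an adjusted p of 0.404. Ctsd had 407, 440, 460 and 427 CPM in CCI contralateral hemispheres, against 331, 299 and 346 CPM in sham contralateral ones (log2 fold change 0.41, interval 0.19 to 0.64, adjusted p = 0.350).

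Ctsz had 43.7, 43.2, 51.7 and 39.0 CPM in CCI contralateral hemispheres, against 29.99, 31.9 and 29.4 CPM in sham contralateral ones (log2 fold change 0.55, interval 0.25 to 0.85, adjusted p = 0.333). Ctsb had 639, 633, 644 and 642 CPM in CCI contralateral hemispheres, against 558, 558 and 571 CPM in sham contralateral ones, a fitted fold of 1.14 (adjusted p = 0.436) with very little scatter on either side. The calls depended on the method. DESeq2 called 4 members, Ctsd (adjusted p = 0.0351), Ctss (0.0165), Ctsz (0.00546) and Ctsl, among 33 genes called higher and 4 lower of 14875. With limma voom 0 members were called, and over all genes 1 was called higher and 0 lower. In the authors' deposited table Ctss (log2 estimate 0.54, adjusted p = 0.0091) and Ctsz (0.62, adjusted p = 0.0113) passed the threshold. Of the 14875 genes, 28 were called higher and 5 lower in that table. Homeostatic microglia genes also had higher medians there, with a list median of 0.34 on the log2 scale and 0 of 10 called, and their part in the cathepsin values was not tested.

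Most other cathepsins had few or no counts in these libraries. Of 13 further cathepsin genes in the table, only Ctso had enough reads to be tested. It had 47.99 to 53.8 CPM in CCI ipsilateral hemispheres, against 32.6 and 36.3 CPM in sham ipsilateral ones (1.49-fold, adjusted p = 0.000171). Ctsw, a cathepsin of cytotoxic lymphocytes, had 4, 7, 4 and 2 counts in CCI ipsilateral libraries, against 1 and 3 counts in sham ipsilateral ones. Ctsg, a neutrophil granule protease, had 1 count in all CCI ipsilateral libraries together and 0 in the sham ipsilateral ones.

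Most tested inhibitors of cathepsins were also higher on the injured side than in sham. Of 9 inhibitor genes, 6 had enough reads to be tested, and 5 of these were called higher and 0 lower in CCI ipsilateral against sham ipsilateral hemispheres. Against CCI contralateral hemispheres 3 of the 6 were called higher, and in the interaction 0 of the 6 were called. The fold changes below are against sham ipsilateral hemispheres. Cst3 (cystatin C), the dominant secreted inhibitor of the brain, rose 1.39-fold (adjusted p = 0.0228), with 2561 ± 280 TPM in CCI ipsilateral and 1782 ± 242 TPM in sham ipsilateral hemispheres. The cathepsin sum was above Cst3 in CCI ipsilateral hemispheres, at 3125 TPM, and below it in sham ipsilateral ones, at 984 TPM. This sum is no balance of protease and inhibitor, since it includes Ctsd and Ctsa, which are not cysteine proteases. Ctsd alone averaged 1469 TPM in CCI ipsilateral and 321.5 TPM in sham ipsilateral hemispheres, and Ctsa 187 and 103.1 TPM. Cstb (cystatin B), which acts inside cells, rose 1.72-fold (adjusted p = 0.000246).

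Ctla2a and Ctla2b, which resemble the propeptide of cathepsin L and inhibit such proteases, rose 2.18-fold (adjusted p = 0.00378) and 6.02-fold (adjusted p = 0.00221). Ctla2b was scarce, with 25, 9, 31 and 27 counts in CCI ipsilateral libraries, against 3 and 3 counts in sham ipsilateral ones. The pair are closely similar copies, so the division of reads between them is uncertain. Cst7 (cystatin F), an inhibitor made by immune cells that acts on Ctsc, had 12, 23, 24 and 25 counts in CCI ipsilateral libraries, against 1 and 2 counts in sham ipsilateral ones. The ratio of its summed counts per total was 11.8, with an exact 95% interval of 3.91 to 58.5 that covers counting error only, and the gene was called (adjusted p = 0.000114). Cst6 was not called (0.92-fold, adjusted p = 0.818).

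Of 10 genes that sort and activate cathepsins, 5 were called higher and 1 lower in CCI ipsilateral against sham ipsilateral hemispheres. Over all genes tested these shares were 12.5% and 10.0%. Set against CCI contralateral hemispheres, 7 were called higher and 1 lower, beside 12.8% and 8.90% of all genes. Their median log2 fold changes were 0.20 and 0.24 in these comparisons, beside 1.53 and 1.11 for the cathepsin genes. Single genes below are compared with sham ipsilateral hemispheres. Grn (progranulin), a protein of lysosomes that binds Ctsd, rose 3.73-fold (adjusted p = 2.61e-07). Lgmn, the asparaginyl endopeptidase that matures several cathepsins, rose 2.39-fold (adjusted p = 1.02e-07). Psap (prosaposin), M6pr, a mannose 6-phosphate receptor, and Scarb2, which carries glucocerebrosidase to lysosomes, rose by only 1.25-fold, 1.21-fold and 1.19-fold (adjusted p 0.000208, 0.00527 and 0.00409). Sort1 (sortilin), a receptor for progranulin and prosaposin, was lower, at 0.815-fold (adjusted p = 0.000243). The enzymes that build and uncover the mannose 6-phosphate mark (Gnptab, Gnptg and Nagpa) and the receptor Igf2r were between 1.01-fold and 1.11-fold and were not called.

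The vacuolar proton pump, which makes lysosomes acid, had calls in both directions. Of 19 tested subunit genes, 3 were called higher and 3 lower against sham ipsilateral hemispheres, with a median log2 fold change of -0.09. In CCI ipsilateral against CCI contralateral hemispheres 2 were called higher and 7 lower (median -0.13), beside 12.8% and 8.90% of all genes. Summed CPM of the 20 listed genes was 4831 to 5196 in CCI ipsilateral hemispheres. It was 5337 to 5410 in sham ipsilateral and 5321 to 5523 in CCI contralateral ones. The fold changes of single subunits below are against sham ipsilateral hemispheres. Tcirg1, a subunit known from osteoclasts and immune cells, rose 2.83-fold (adjusted p = 3.64e-08) and Atp6v0e 1.31-fold (adjusted p = 0.0212), while Atp6v0a1, the related subunit that is abundant in neurons, was lower at 0.88-fold (adjusted p = 0.0184).

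Of 5 tested transcriptional regulators, 3 were called higher in CCI ipsilateral against sham ipsilateral hemispheres. Spi1 and Irf8, regulators of myeloid genes, rose 4.63-fold (adjusted p = 9.29e-07) and 4.57-fold (adjusted p = 9.39e-08). Tfe3, a regulator of lysosomal genes, rose 1.22-fold (adjusted p = 0.0259), and its relatives Tfeb (1.28-fold, adjusted p = 0.194) and Mitf (1.15-fold, adjusted p = 0.417) were not called. When CCI ipsilateral was set against CCI contralateral hemispheres, 3 of the 5 regulators were also called higher. There Tfeb had 8.14 to 11.34 CPM in CCI ipsilateral and 5.64 to 7.12 CPM in CCI contralateral hemispheres. The ranges of Tfe3 overlapped, at 42.11 to 48.45 CPM in CCI ipsilateral and 39.08 to 43.72 CPM in CCI contralateral hemispheres. Tfec had 3, 2, 3 and 3 counts in CCI ipsilateral libraries, against 0 counts in both sham ipsilateral ones, too few to test. Among proteins that cathepsins act on or protect, Cd74, the invariant chain cut by Ctss, rose 4.53-fold (adjusted p = 1.07e-06), with 21.3 ± 6.02 CPM in CCI ipsilateral and 4.75 ± 1.81 CPM in sham ipsilateral hemispheres. Glb1 and Neu1, the partners of Ctsa, differed: Glb1 rose 1.39-fold (adjusted p = 0.00366), and Neu1 was at 0.967-fold (adjusted p = 0.758). The granule proteases that Ctsc activates (Gzma, Gzmb, Elane and Prtn3), and Mpo beside them, were too low to test.

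Markers of phagocytes moved with the cathepsin genes in the CCI ipsilateral hemisphere, and their part in the results was not tested. All 10 homeostatic microglia genes were called higher against sham, with a median log2 fold change of 1.15. Their summed CPM was 582.6 to 811.6 in CCI ipsilateral and 303.4 to 313.1 in sham ipsilateral hemispheres, with no marker at 0. Of 6 tested monocyte and macrophage genes 5 were called higher. The summed CPM of all 10 listed was 307.9 to 530.1 in CCI ipsilateral and 10.7 to 10.9 in sham ipsilateral hemispheres, and Ly6c2 and Arg1 were at 0 in the sham ones. Mrc1, Gad2 and Fmod are listed at 0 in all 13 libraries, and whether this means absence from the tissue was not tested. Fibroblast genes were called higher for 5 of 7 tested (175.8 to 280.3 summed CPM in CCI ipsilateral, 65.6 and 72.5 in sham ipsilateral), and astrocyte genes for 5 of 8 (6305 to 7994 in CCI ipsilateral, 4926 and 5237 in sham ipsilateral).

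Neuronal genes were called lower for 5 of 7 tested, with 4971 to 5522 summed CPM in CCI ipsilateral and 6644 and 7109 in sham ipsilateral hemispheres. Neutrophil markers were near 0, at 3.08 to 7.48 summed CPM in CCI ipsilateral and 2.42 and 3.10 in sham ipsilateral hemispheres, and 0 of 2 tested were called. Lymphocyte markers summed to 8.05 to 11.7 CPM in CCI ipsilateral and 11.3 and 12.4 in sham ipsilateral hemispheres, with 0 of 1 tested called. Of bone and osteoclast genes 1 of 5 tested was called (23.6 to 27.5 summed CPM in CCI ipsilateral, 20.2 and 24.8 in sham ipsilateral). Oligodendrocyte genes were called higher for 3 of 8, endothelial genes for 2 of 8 and choroid plexus genes for 0 of 6.

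Set against the mean log2 CPM of the 10 homeostatic microglia genes in the same library, the cathepsin genes fell into 3 patterns. Ctsd, Ctss, Ctsz, Ctsh and Ctsc had higher means relative to those genes in CCI ipsilateral hemispheres than in the other groups. They are the upper set, named above by its rise in these same libraries, so this is no separate result. The difference for Ctsd was 4.65 ± 0.02 in CCI ipsilateral and 3.65 ± 0.09 in sham ipsilateral hemispheres (log2 units, SD). For Ctss it was 1.94 ± 0.17 in CCI ipsilateral and 1.04 ± 0.18 in sham ipsilateral hemispheres, and for Ctsz 1.04 ± 0.10 in CCI ipsilateral and 0.29 ± 0.19 in sham ipsilateral hemispheres. Ctsl kept nearly the same distance, at 1.71 ± 0.09 in CCI ipsilateral and 1.67 ± 0.14 in sham ipsilateral hemispheres, and so did Ctsb, at 4.49 ± 0.09 in CCI ipsilateral and 4.55 in both sham ipsilateral hemispheres. Ctsa, Ctsf and Ctsk had lower means relative to the microglia genes than in sham ipsilateral hemispheres, Ctsf at -0.10 ± 0.25 in CCI ipsilateral and 0.95 ± 0.03 in sham ipsilateral hemispheres. These are descriptions without a test, and the share of all genes with each pattern was not counted.

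**Figure D5:**
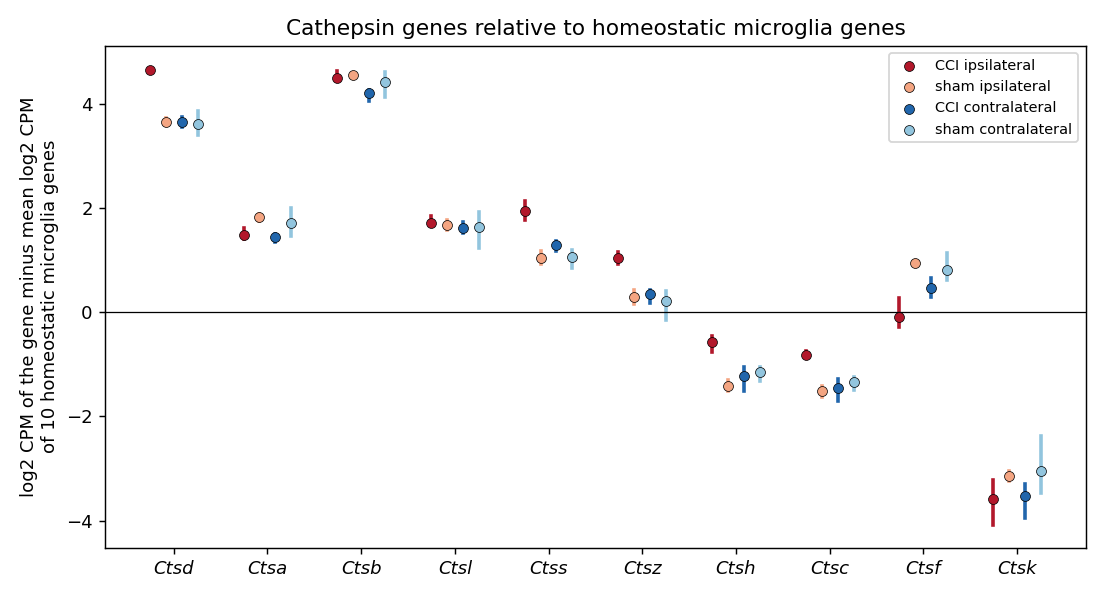
Log2 CPM of each cathepsin gene minus the mean log2 CPM of 10 homeostatic microglia genes in the same library, as group means with lines from the lowest to the highest library. Ctsd, Ctss, Ctsz, Ctsh and Ctsc lie higher in CCI ipsilateral hemispheres than in the other groups, Ctsl is level, and Ctsf lies lower, at -0.10.

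The genes with the most similar profiles over the 13 libraries were found by the root-mean-square difference of centred log2 CPM, where 0 is identity. Nearest to Ctsd was Grn (0.129), then C1qa and C1qc, genes of the complement component C1q. Nearest to Ctss were Ncf1, a subunit of the phagocyte oxidase, and C1qa (both 0.141), then Grn, and nearest to Ctsz were Grn (0.132), C1qa and Ncf1. Ctsc and Ctsh shared Lyn, a kinase of immune cells, and Arpc1b, an actin regulator, among their nearest 3 (Lyn at 0.093 from Ctsc, Arpc1b at 0.094 from Ctsh). Ctsb was nearest to Hexa (0.080), a lysosomal hexosaminidase subunit, and Lgmn (0.083), and Ctsl to Cotl1 (0.098), Lgmn and Cd63. Nearest to Ctsa were Fgfrl1 (0.065), Ednrb and Abhd4, to Ctsf were Ivd (0.062), Ptprm and Zswim8, and to Ctsk were Tifa (0.203), Ecm2 and Smc4. Between members the closest pairs were Ctsc with Ctsh and Ctsb with Ctsl (both 0.125) and Ctss with Ctsz (0.128).

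On GRCm38 (GENCODE M21 gene bounds) Ctsk lies at chr3:95499256-95509362 and Ctss at chr3:95526786-95556403, both on the plus strand and 17424 bases apart. Ctss rose 4.14-fold and Ctsk was not called (log2 interval 0.13 to 1.41). Ctsc (chr7:88278085-88310888) and Ctsd (chr7:142375911-142388038) share chromosome 7, and Ctsa (chr2:164832873-164841032) and Ctsz (chr2:174427493-174439039) share chromosome 2. Exons of Ctsa, Ctsb and Ctsz overlap genes on the opposite strand, Pltp and Neurl2, Fdft1, and Nelfcd. The strand setting of the counting is not stated in any source at hand, so reads may be shared. Fdft1 was lower in CCI ipsilateral hemispheres (log2 fold change -0.48, adjusted p = 0.000356), Pltp higher (0.28, adjusted p = 0.0322), and Nelfcd and Neurl2 were not called. The part of shared reads in the values of Ctsa, Ctsb and Ctsz was not tested.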

How the data were processed

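Polyadenylated RNA of 13 brain hemispheres from 7 mice was sequenced with a stranded kit, per the labels' protocols. The authors deposited expected counts per gene and TPM values, per the file headers. The submitters' processing notes name RSEM, bcl2fastq, DESeq2 and GRCm38 without versions. The authors' deposited comparison table holds a log2 estimate, a signed fold change (a score), and raw and adjusted p-values per gene. The aligner, annotation release and strand setting are not given in the sources at hand.

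Counts were rounded to whole numbers (9.76% were not whole) and tested with edgeR 4.0.16 (R 4.3.3; quasi-likelihood, robust, TMM scaling, group-wise filter on low counts). A single fit of 4 group means covered all libraries, and p-values were adjusted over the 14875 genes tested. Standard errors were derived from the fold change and the F statistic, and are approximate. Alternatives used DESeq2 1.42.0, limma 3.58.1 (voom, with and without the animal as a random effect, and log2 of TPM plus 1 or 0.1), other scaling, no filter, only the groups compared, the animal as a block, and each library left out. The procedure was tested on simulated data. Chi-square per degree of freedom between replicates was 2.07 to 3.99 over 16 pairs, above sampling noise, so no library was a duplicate of another in its group. Pairs across groups were not compared in this way.

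Equal animal numbers pair the hemispheres of a mouse, per the labels. Deviations from the group means correlated at 0.00348 to 0.0882 within animals, and at -0.0966 to 0.0966 between different animals.

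All 10 members are named, as is every measured gene of the inhibitor, sorting, regulator and partner lists and of the other cathepsins, save those with few or no reads. Of the proton pump the 3 called genes with the smallest adjusted p are named. For each member the 3 nearest profiles are named. Cell markers appear as counts and sums. The members and lists were chosen with earlier results of these data known. Promoter windows are from RefSeq on GRCm38.p6, cut to end 30 bases after the start.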

Additional observations from a re-analysis of the deposited data

Results flagged for a closer look

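The hemisphere difference was larger in CCI than in sham mice for 8 cathepsin genes, by the interaction test in edgeR. The log2 differences were 1.73 for Ctsd, 1.69 for Ctsh, 1.62 for Ctsc, 1.41 for Ctss, 1.35 for Ctsz, 0.89 for Ctsb, 0.79 for Ctsl and 0.69 for Ctsa. Each of the 4 CCI animals had the higher level in the ipsilateral hemisphere for each of these genes. The genes were named by calls in these same libraries, so this is no separate result. No library stood out by Dixon's criterion in the 20 groups of 4 values examined (0 of 20).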

How the results depend on the processing

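In 3 comparisons (CCI ipsilateral with sham ipsilateral, CCI ipsilateral with CCI contralateral, and the interaction) the 8 members called above were called under every alternative that was run, and no called value changed sign. In the 2 that compare hemispheres, a replicate block for the animal also gave 8 members called, and gave 0 for sham ipsilateral with sham contralateral; the block changed no call. CCI and sham share no animals, so the other comparisons have no paired form. For CCI contralateral with sham contralateral, where 1 member was called, the count was 3 without a filter on low counts, 4 with DESeq2, 4 with only the groups compared, and 0 with limma voom, with the animal as a random effect, and on log2 TPM with either pseudocount. Leaving out a library gave 0 to 3 there: 0 without any 1 of the 7 contralateral libraries, 3 without the CCI ipsilateral library of animal 2, and 2 without that of animal 3 or 5. The cause was not tested. Over all genes, CCI ipsilateral with sham ipsilateral gave 1859 higher and 1493 lower; it gave 985 and 690 when animal 6's sham ipsilateral library was left out, 1912 and 699 on log2(TPM + 1), and 1878 and 693 on log2(TPM + 0.1). CCI ipsilateral with CCI contralateral gave 1909 and 1324, against 1758 and 602, and 1676 and 588, on those TPM scales. The interaction gave 720 and 445, against 259 and 134 without that sham library, 461 and 353 without the sham contralateral library of animal 8, 632 and 164 on log2(TPM + 1), and 569 and 152 on log2(TPM + 0.1). CCI contralateral with sham contralateral gave 12 and 2, with 1 to 72 higher over the alternatives. It gave 72 and 34 of 24490 genes without a filter, and 37 and 8 of 14088 with only the groups compared. DESeq2 gave 33 and 4, and limma voom 1 and 0. On log2(TPM + 1) the counts were 19 and 0, and on log2(TPM + 0.1) 15 and 0. Leaving out the CCI ipsilateral library of animal 2, 3 or 5 gave 30 and 4, 21 and 3, or 16 and 4. The log2 fold change of Ctsl there lay between 0.34 and 0.43, that of Ctsc between 0.14 and 0.48, that of Ctsa between 0.06 and 0.17 and that of Ctsk between -0.35 and 0.23. The interaction of Ctsk lay between 0.53 and 1.11. Uncalled values changed sign in 23 cases, all close to 0 or in scarce Ctsk. Ctsk had 11 to 40 counts a library, and the part of depth in its values was not tested.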

Other observations

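Cst7, the inhibitor that acts on Ctsc, had 6, 4, 4 and 5 counts in the CCI contralateral libraries and 0 in each of the 3 sham contralateral ones. Against a floor of 3 counts over the sham group the ratio of its counts per total was 4.73, which leaves out the counting error of its 19 counts. Cst7 missed the threshold (edgeR adjusted p = 0.0531).

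The authors' deposited estimates matched the fitted ones where no sham library was involved and not elsewhere. For CCI ipsilateral against CCI contralateral the median absolute difference over 14875 genes was 0.001 on the log2 scale. It was 0.128 for CCI ipsilateral against sham ipsilateral and 0.110 for CCI contralateral against sham contralateral. For Ctsl the authors' estimate was lower than the fitted value by 0.44 and 0.31 in those comparisons, with authors' values of 0.73 and 0.08 and fitted values of 1.18 and 0.39. The libraries behind the authors' sham values are not stated in the table.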
